A study of Homo sapiens with 6 samples.

Results

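The genes described here are 10 transcription factors that mark or maintain the basal and luminal lineages of the breast: TP63, SOX9, SOX4, FOXC1, GATA3, FOXA1, ELF5, TFAP2A, TFAP2C and RUNX1. They were taken by symbol from the deposited gene count table, where all 10 were found among 26334 genes. The cells were MCF10DCIS.COM, an established human breast line of the MCF10 series that forms lesions like ductal carcinoma in situ in mice. Control cells (shLuc, 3 libraries) carried the vector pRSI-U6-shLuc-UbiC-TagRFP-2A-Puro, whose hairpin targets luciferase, and silenced cells (shWDR5, 3 libraries) carried pRSI-U6-shWDR5-UbiC-TagRFP-2A-Puro. WDR5 is a WD-repeat scaffold protein that the MLL and SET1 enzymes need to methylate histone H3 efficiently on lysine 4. Both groups were infected, selected with 3 µg/ml of puromycin and grown in DMEM/F12 with 5% horse serum and 1.05 mM CaCl2. The study's methods describe the WDR5 hairpins as a pool, so the effects of single hairpins cannot be told apart here. The replicates came from a single cell line and no label says that they were separate infections, so p-values measure only the spread between these libraries.

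The breast epithelium has an outer basal layer, which touches the basement membrane and contracts, and an inner luminal layer, which faces the duct and carries the hormone-sensing and milk-producing cells. p63 and SOX9 support basal and progenitor states, while GATA3 and FOXA1 open chromatin for the oestrogen receptor in luminal cells, and ELF5 directs the milk-producing alveolar branch. The AP-2 proteins encoded by TFAP2A and TFAP2C, and the RUNX protein encoded by RUNX1, act in both compartments and are grouped here with the luminal factors because of their roles in luminal gene expression.

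The libraries held between 38218108 and 57640167 counted reads. The hairpin target was lowered as the labels say. WDR5 stood at 52.6, 48.5 and 51.3 CPM (counts scaled to library size) in shLuc replicates 1, 2 and 3 and at 23.4, 24.4 and 20.8 CPM in the shWDR5 libraries, a 2.22-fold lower level (log2 fold change -1.15 ± 0.07, SE; adjusted p = 8.67e-07, edgeR's quasi-likelihood test). The line carried basal and luminal markers together: the basal keratin KRT5 averaged 820.3 CPM and the luminal keratin KRT8 averaged 2024 CPM in shLuc. Among the luminal markers the receptor tyrosine kinase KIT had no read in any library, and the oestrogen-induced peptides TFF1 and TFF3 had none either. The oestrogen receptor gene ESR1 averaged 3.68 CPM and the progesterone receptor gene PGR 0.00675 CPM in shLuc.

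Of the 10 lineage factors, 9 had enough reads to be tested and 8 of these differed between the groups at an adjusted p below 0.05. SOX4, TP63, TFAP2A, RUNX1 and SOX9 were higher in shWDR5, and TFAP2C, FOXA1 and GATA3 were lower. FOXC1 did not pass the test and ELF5 was too rare to be tested. In such bulk libraries, fewer cells of a type and less RNA per cell cannot be told apart. The count has to be read against a very broad response: 56.5% of the 16117 tested genes passed the same threshold, 26.6% of them higher and 29.9% lower. Among genes with a mean of at least 20 CPM, as all 9 tested factors had, the share was 63.8%. When a log2 fold change of at least 0.6 and a level above 0.5 RPKM (reads scaled by exonic length and library size) were also asked for, only SOX4 (higher) and TFAP2C (lower) remained of the 9, beside 18.4% of all tested genes, 7.9% higher and 10.5% lower.

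**Figure D1:**
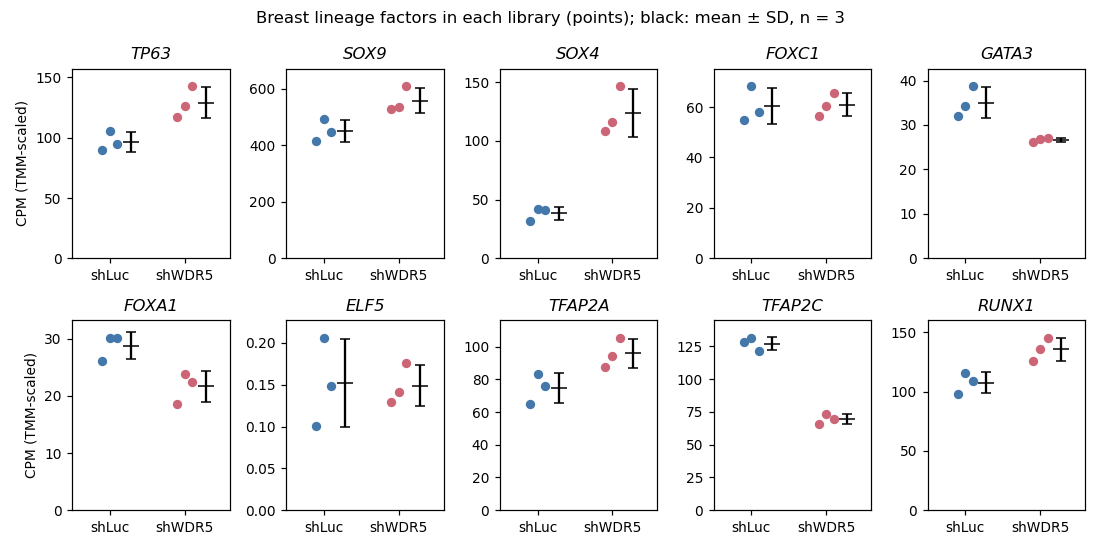
CPM of each of the 10 lineage factors (vertical axes, each starting at 0) in the 3 shLuc and 3 shWDR5 libraries; points are libraries and black marks show the mean ± SD. The groups are separate for the 8 factors that passed the test and overlap for FOXC1 and ELF5.

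SOX4, an HMG-box factor of progenitor cells whose gene is a single exon at chr6:21593972-21598849 (hg19, plus strand), showed the largest change. It stood at 32.1, 42.1 and 41.0 CPM in shLuc and at 108.0, 116.4 and 146.9 CPM in shWDR5. The lowest shWDR5 library lay far above the highest shLuc library. The mean rose from 38.4 ± 5.51 to 123.8 ± 20.5 CPM (SD, n = 3 each), a 3.23-fold increase with a log2 fold change of 1.69 ± 0.13 (SE; adjusted p = 2.46e-06). In absolute size this change ranked 430 among the 16117 tested genes.

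SOX9, the other HMG-box factor, is encoded at chr17:70117161-70122560 (plus strand) and supports mammary progenitors. Its level was 413.9, 492.3 and 445.8 CPM in shLuc and 529.5, 536.7 and 611.3 CPM in shWDR5. All shWDR5 libraries were above all shLuc libraries, but the gap between the nearest of them was small. The increase was 1.24-fold (log2 0.31 ± 0.08; adjusted p = 0.00552). This size was ordinary for the experiment, at percentile 50.5 of the absolute log2 fold changes of all tested genes.

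TP63, the gene that specifies basal and stratified epithelia, spans chr3:189349216-189615068 (plus strand). It stood at 89.6, 105.9 and 94.4 CPM in shLuc and at 117.4, 126.7 and 143.1 CPM in shWDR5. The groups did not overlap and the increase was 1.34-fold (log2 0.42 ± 0.08; adjusted p = 0.0017). The table counts all TP63 transcripts together, so the long and the N-terminally shortened forms of p63, which start at different promoters, could not be separated.

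FOXC1, a forkhead factor typical of basal-like tumours and a single exon at chr6:1610681-1614129 (plus strand), stood at 54.7, 68.4 and 58.1 CPM in shLuc and at 56.4, 60.6 and 65.6 CPM in shWDR5. The 2 ranges lay over each other. The log2 difference was 0.01 ± 0.09 with a 95% interval from -0.19 to 0.21 (adjusted p = 0.922). Changes within this interval, in either direction, were not excluded.

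GATA3, the zinc-finger factor that defines luminal cells, is encoded at chr10:8096667-8117164 (plus strand). It stood at 32.0, 34.3 and 38.8 CPM in shLuc and at 26.1, 26.8 and 27.0 CPM in shWDR5. The silenced libraries were close to each other and all lay below the controls, with a 1.31-fold lower level (log2 -0.39 ± 0.08; adjusted p = 0.0014).

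FOXA1, the forkhead pioneer factor that acts with GATA3 and the oestrogen receptor, is encoded at chr14:38058757-38064325 (minus strand). Its level was 26.1, 30.2 and 30.1 CPM in shLuc and 18.6, 23.9 and 22.5 CPM in shWDR5. The groups did not overlap, and the level was 1.33-fold lower (log2 -0.41 ± 0.10; adjusted p = 0.00522).

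ELF5, the ETS factor of alveolar luminal cells at chr11:34500342-34535347 (minus strand), was nearly silent. It had 5, 8 and 6 reads in the shLuc libraries and 6, 8 and 8 reads in the shWDR5 libraries. The gene stood below the filter on low counts. Fitted without the filter, its log2 difference was -0.01 ± 0.47 (adjusted p = 0.988), so a difference was not excluded at this depth.

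TFAP2C, which encodes AP-2 gamma and activates luminal genes such as ERBB2 and RET, lies at chr20:55204358-55214338 (plus strand). It stood at 128.2, 131.6 and 121.7 CPM in shLuc and at 66.1, 73.3 and 69.4 CPM in shWDR5. The groups were widely separate and tight within themselves. The level fell 1.83-fold, from 127.2 ± 5.03 to 69.6 ± 3.59 CPM (log2 -0.87 ± 0.06; adjusted p = 1.39e-06), and the change lay at percentile 87.3 of all absolute log2 fold changes.

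TFAP2A, which encodes the closely related AP-2 alpha at chr6:10396916-10419797 (minus strand), moved the other way. It stood at 64.7, 83.1 and 76.0 CPM in shLuc and at 87.8, 94.4 and 105.5 CPM in shWDR5. The highest control and the lowest silenced library were close, and the increase was 1.29-fold (log2 0.36 ± 0.10; adjusted p = 0.00779). TFAP2A shares 161 exonic bases with TFAP2A-AS1 on the opposite strand, and the library kit does not mark strand, so reads from these bases cannot be told apart. TFAP2A-AS1 itself averaged 0.916 CPM in shLuc and 1.44 CPM in shWDR5, which is little beside TFAP2A. Its adjusted p was 0.0238, and 0.0673, 0.0897 and 0.0704 without shLuc replicate 1, shLuc replicate 3 or shWDR5 replicate 1.

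RUNX1, a factor of both mammary layers that restrains progenitor growth, spans chr21:36160098-36421595 (minus strand). It stood at 97.8, 115.4 and 108.8 CPM in shLuc and at 126.0, 136.0 and 145.5 CPM in shWDR5. The groups did not overlap and the increase was 1.27-fold (log2 0.34 ± 0.07; adjusted p = 0.0029).

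The 8 factors that passed the test were also those whose groups did not overlap, beside 62.3% of all tested genes with separate groups. Of the factors grouped as basal or progenitor, 3 of 4 were higher and none was lower. Of the luminal group, 3 were lower and 2 higher among the 5 tested. Beside these counts, 26.6% of all tested genes were higher and 29.9% lower. Both groups are small, and the counts depend on how the factors were assigned to them. The changes of TP63, SOX9, TFAP2A, RUNX1, GATA3 and FOXA1 were all between percentile 50.5 and 62.3 of the absolute fold changes. Among the 8 factors that passed, SOX4 at percentile 97.3 and TFAP2C at percentile 87.3 were the ones above that range.

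**Figure D2:**
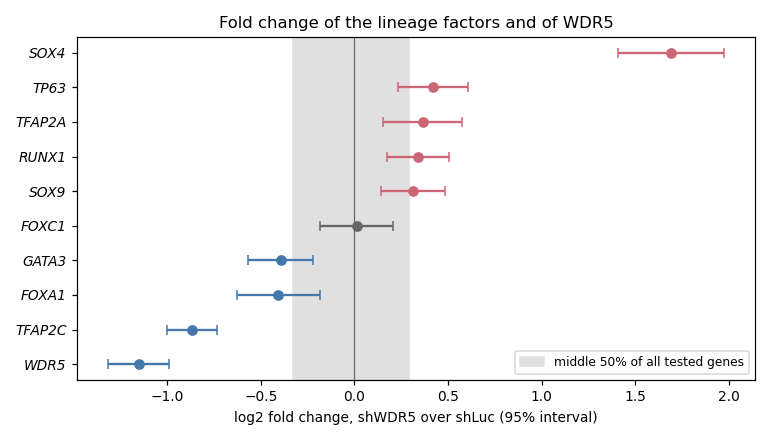
Log2 fold change of shWDR5 over shLuc for the 9 tested lineage factors and WDR5 with 95% intervals (red: higher, blue: lower, grey: not passing the test); the band covers the middle 50% of all tested genes, from -0.33 to 0.29. SOX4 lies at 1.69 and TFAP2C at -0.87, while FOXC1 sits at 0.01.

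Because lengths differ between genes, levels were compared on the RPKM scale. SOX9 was the highest lineage factor in both groups, at 114.6 ± 10.0 RPKM in shLuc and 142.1 ± 11.5 RPKM in shWDR5 (SD, n = 3). In shLuc, TFAP2C followed at 44.4 ± 1.76 RPKM, clear of the rest. Then came TFAP2A, FOXC1, TP63, RUNX1 and GATA3, between 17.5 and 11.4 RPKM, with each overlapping its neighbour in the order. SOX4 was the lowest factor above ELF5 in shLuc, at 7.87 ± 1.13 RPKM, and its range overlapped that of FOXA1 at 8.52 ± 0.70 RPKM. In shWDR5, SOX4 stood second at 25.4 ± 4.20 RPKM, not separate from TFAP2C at 24.3 ± 1.25 RPKM, which in turn overlapped TFAP2A at 22.6 ± 2.11 RPKM. GATA3 at 8.67 ± 0.16 RPKM and FOXA1 at 6.42 ± 0.81 RPKM were then the lowest of the 9 factors and separate from each other and from RUNX1 above them. ELF5 stayed at 0.0591 RPKM in shLuc and 0.0578 RPKM in shWDR5.

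**Figure D3:**
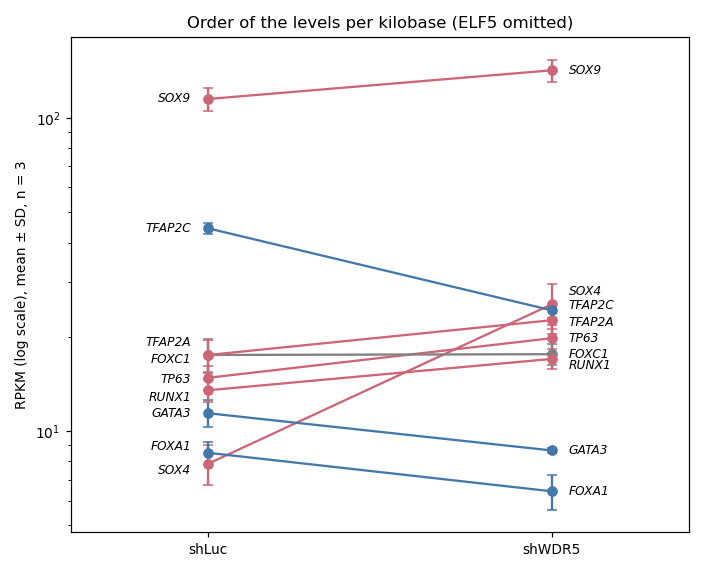
Mean RPKM (log axis) of 9 lineage factors in shLuc and shWDR5 with SD over 3 libraries; lines join the same gene (red: higher, blue: lower, grey: not passing the test). SOX4 moves from 7.87 to 25.4 RPKM, while TFAP2C comes down from 44.4 to 24.3 RPKM.

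The balance within the AP-2 family was compared inside each library, where the scaling between libraries drops out. The ratio of TFAP2A to TFAP2C was 0.34, 0.425 and 0.421 in the shLuc libraries and 0.895, 0.868 and 1.03 in the shWDR5 libraries, on the RPKM scale. TFAP2C exceeded TFAP2A in every control library, and the genes were near the same level after silencing. The log2 ratio differed by 1.24 between the groups, with p = 0.1 in the two-sided exact permutation test. That is the smallest value that 3 against 3 libraries can give (0.15 after Benjamini-Hochberg adjustment over the 3 ratios compared). The 3 ratios were chosen after the data were seen, so their p-values describe the separation and are no further test of it. The summed level of both genes went from 61.9 ± 3.07 to 46.8 ± 2.77 RPKM.

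The ratio of SOX4 to SOX9 was 0.0625, 0.069 and 0.0741 in shLuc and 0.165, 0.175 and 0.194 in shWDR5. SOX9 thus remained the more abundant SOX gene in every library (log2 difference of the ratio 1.38, exact permutation p = 0.1, adjusted 0.15). GATA3 and FOXA1, which fell together, kept overlapping ratios of 1.35, 1.25 and 1.42 in shLuc and 1.54, 1.24 and 1.32 in shWDR5 (log2 difference 0.02, exact permutation p = 1).

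**Figure D4:**
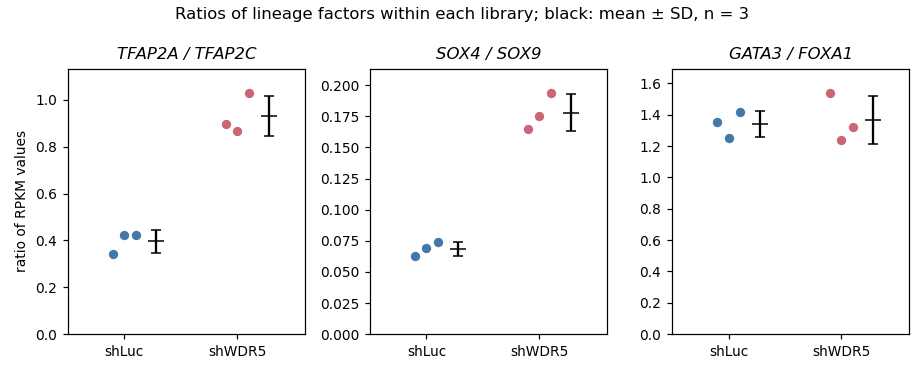
Ratios of RPKM values between lineage factors in each library (points; vertical axes start at 0), with mean ± SD in black. TFAP2A over TFAP2C went from a mean of 0.395 to 0.929 and SOX4 over SOX9 from 0.0685 to 0.178, while GATA3 over FOXA1 stayed at 1.34 and 1.37.

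Promoter sequence was available from RefSeq (GRCh38.p14) for 8 of the 10 factors in 14 start windows, and the 250 bases before each start were searched. SOX9 and TFAP2C were not matched. The core AP-2 recognition letters GCCNNNGGC, which read the same on both strands, occurred in windows of GATA3, FOXC1 and RUNX1 and in 19.8% of all 35116 windows of this length. Below are the SOX4 window, since SOX4 changed most, and windows of the 3 factors with a match, which changed in different directions or did not pass the test, with the AP-2 letters in capitals.
SOX4, chr6:21593501-21593750, plus strand: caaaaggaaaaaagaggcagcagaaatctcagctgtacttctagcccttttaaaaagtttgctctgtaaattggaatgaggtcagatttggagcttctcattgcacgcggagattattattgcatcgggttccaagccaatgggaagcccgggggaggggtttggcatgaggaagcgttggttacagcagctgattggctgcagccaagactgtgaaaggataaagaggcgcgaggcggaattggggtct
RUNX1, chr21:34888700-34888949, minus strand: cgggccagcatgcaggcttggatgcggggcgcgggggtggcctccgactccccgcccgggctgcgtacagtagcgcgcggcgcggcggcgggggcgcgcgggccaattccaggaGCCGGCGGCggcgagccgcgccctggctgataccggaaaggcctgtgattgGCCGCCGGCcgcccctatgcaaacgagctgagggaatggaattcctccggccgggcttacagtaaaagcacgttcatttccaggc
GATA3, chr10:8054438-8054687, plus strand: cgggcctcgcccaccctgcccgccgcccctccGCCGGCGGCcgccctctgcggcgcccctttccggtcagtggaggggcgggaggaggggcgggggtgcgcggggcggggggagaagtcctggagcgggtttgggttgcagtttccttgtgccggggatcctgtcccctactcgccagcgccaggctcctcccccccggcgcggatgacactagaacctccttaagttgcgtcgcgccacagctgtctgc
FOXC1, chr6:1609665-1609914, plus strand: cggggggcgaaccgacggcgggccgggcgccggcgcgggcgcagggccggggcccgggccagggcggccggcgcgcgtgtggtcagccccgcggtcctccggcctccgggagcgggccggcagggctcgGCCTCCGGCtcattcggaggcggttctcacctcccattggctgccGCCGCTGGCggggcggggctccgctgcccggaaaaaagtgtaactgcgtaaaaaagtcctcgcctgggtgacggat

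The RUNX1 and FOXC1 windows held 2 matches each, and 3 of the 6 GATA3 windows held 1 each. RUNX1 rose, GATA3 fell and FOXC1 did not pass the test. In all, 5 of the 14 factor windows held a match, beside 19.8% of all windows. Whether these letters have a part in the changes was not tested. The windows differed in composition: SOX4 had 48.8% G and C with 8 CpG dinucleotides, FOXC1 76.8% with 37, against a median of 58.0% with 11 over all windows. On both strands, the GATA letters AGATAA were in none of the 14 windows (9.2% of all windows) and the SOX letters AACAAT in 1, of GATA3 (9.0%). The RUNX letters TGTGGT were in 2 windows, of FOXC1 and GATA3 (11.0%), and the forkhead letters TGTTTAC in 1, of ELF5 (3.0%). The E-box letters CACGTG and the ETS letters CCGGAAG were in 1 window each, both of GATA3 (6.3% and 8.5% of all windows). No match overlapped that of another motif.

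The genes around the lineage factors were examined next. Within 100 kb of a factor, the table held 24 other genes, of which 19 were tested, 11 were higher in shWDR5, 2 lower and 6 did not pass. Around SOX9, all 5 of the other genes listed rose, beside 26.6% of all tested genes called higher. SOX9-AS1, LINC01152 and LOC102723517 are long non-coding RNAs in RefSeq. LOC102723505, at 95041 bases from SOX9, rose from 1.24 to 3.75 CPM (log2 1.58 ± 0.16; adjusted p = 2.12e-05). LOC102723517 rose by 1.07 ± 0.09 and LINC01152 by 0.94 ± 0.08 on the log2 scale. The remaining ones, SOX9-AS1 at 227 bases (0.54 ± 0.11) and LOC101928205 (0.82 ± 0.16), were named after their values were seen. All 5 had larger fold changes than SOX9 itself and lower levels, from 0.912 to 9.71 CPM in shLuc.

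Near FOXC1, which did not pass the test, the non-coding gene FOXCUT rose from 0.449 to 1.77 CPM (log2 2.00 ± 0.25; adjusted p = 7.86e-05), and GMDS, an enzyme gene of fucose metabolism, fell (log2 -0.35 ± 0.07; adjusted p = 0.00127). MIPOL1 near FOXA1 fell as FOXA1 did (log2 -0.33 ± 0.10; adjusted p = 0.0129, and 0.0593 without shLuc replicate 2). TAF3 beside GATA3 stood at 9.86 and 8.99 CPM (adjusted p = 0.18), and LINC01426 beside RUNX1 at 3.42 and 3.67 CPM (adjusted p = 0.476). CASC15 near SOX4, named after its values were seen, averaged 0.0169 CPM in shLuc and was not tested.

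Family members of the 10 factors were mostly rarer or absent. TP73, a relative of TP63, rose from 1.01 to 2.21 CPM (log2 1.12 ± 0.13; adjusted p = 5.3e-05). Of 13 other SOX genes 5 were tested, and SOX6, SOX7, SOX12 and SOX15 rose while SOX13 fell from 95.6 to 51.9 CPM (log2 -0.88 ± 0.09; adjusted p = 1.4e-05). Among all tested genes, 26.6% were higher and 29.9% lower. SOX6, SOX12 and SOX15 rose by 0.31, 0.32 and 0.36 on the log2 scale, ordinary sizes at percentiles 50.1, 51.3 and 56 of the absolute fold changes. SOX7 averaged under 1 CPM in both groups. The call on SOX6 (log2 0.31 ± 0.09; adjusted p = 0.0149) was lost without shWDR5 replicate 3 (adjusted p = 0.0606).

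GATA2 fell from 0.792 to 0.294 CPM (log2 -1.42 ± 0.24; adjusted p = 5.49e-04), and GATA6, with 15.8 and 14.9 CPM, did not pass. RUNX2, the RUNX gene of bone and of invasive breast cells, fell from 2.67 to 0.857 CPM (log2 -1.62 ± 0.22; adjusted p = 1.15e-04), opposite in sign to RUNX1. CBFB, the shared partner of RUNX proteins, averaged 66.7 and 68.6 CPM with SDs of 15.6 and 15.5 and did not pass (adjusted p = 0.865). Of 5 ETS genes related to ELF5, ELF2, ELF3 and ELF4 fell by 0.20 to 0.28 on the log2 scale, while ELF1 and EHF did not pass. Beside this count, 29.9% of all tested genes were lower. The ELF4 call (adjusted p = 0.0241) was lost in 5 of the alternative settings. Neither FOXA2, FOXA3 nor FOXC2 was tested, and of the other AP-2 genes only TFAP2E was tested, at 0.416 and 0.576 CPM (adjusted p = 0.113).

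Other lineage factors and marker genes were taken as lists, whose counts stand against 26.6% of all tested genes higher and 29.9% lower. The lists were chosen with earlier results of these data known, so their counts and medians are descriptions and not independent tests. Of 12 luminal partner factors 11 were tested, with 2 higher, 4 lower and 5 not passing, and a median log2 fold change of -0.10 beside -0.01 for all tested genes. TBX3, a T-box factor of mammary development, rose from 12.0 ± 0.75 to 32.6 ± 2.68 CPM (log2 1.44 ± 0.08; adjusted p = 4.61e-07), and CITED1 rose at mean levels under 1 CPM. MYB, a target and partner of oestrogen signalling, fell from 4.09 to 1.44 CPM (log2 -1.50 ± 0.14; adjusted p = 9.35e-06). ELF3 and TRPS1 also fell. TRPS1, at adjusted p = 0.0483, lost its call in 9 alternative settings. XBP1 stood at 75.9 and 74.4 CPM and EHF at 155.1 and 149.0 CPM without passing.

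Of 10 basal partner factors 8 were tested, with 3 higher, 1 lower and 4 not passing, and a median log2 fold change of 0.37. SNAI2, the zinc-finger repressor of basal stem-like cells, rose from 17.3 ± 0.91 to 41.9 ± 4.08 CPM (log2 1.28 ± 0.08; adjusted p = 9.35e-07). TP73 and BCL11A (log2 0.77 ± 0.12; adjusted p = 2.70e-04) also rose. NFIB, a nuclear factor I gene, fell from 177.0 to 101.3 CPM (log2 -0.80 ± 0.09; adjusted p = 3.53e-05). KLF5 and CEBPB did not pass (adjusted p = 0.538 and 0.104).

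Genes known as p63 targets moved mostly upwards: 9 of 12 were higher, 2 lower and 1 did not pass, with a median log2 fold change of 0.48 beside -0.01 over all tested genes. IGFBP3, an insulin-like growth factor binding protein, rose from 250.4 to 690.7 CPM (log2 1.46 ± 0.05; adjusted p = 3.89e-08). COL17A1, the hemidesmosomal collagen, rose 2.12-fold from 457.3 ± 7.53 to 970.7 ± 45.6 CPM, and the Notch ligand JAG1 rose from 283.2 to 562.3 CPM. S100A2 rose from 3967 to 6054 CPM. ZNF750, a regulator of keratinocyte differentiation, fell by 1.07 on the log2 scale, and FGFR2 did not pass (adjusted p = 0.15).

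Of 10 basal markers, 7 were higher, 2 lower and 1 did not pass, with a median log2 fold change of 0.44, beside 26.6% higher and 29.9% lower among all tested genes. The keratins KRT14, KRT17 and KRT5 rose by 1.29, 0.94 and 0.91 on the log2 scale, and the actin gene ACTA2 rose from 5.06 to 14.4 CPM. NGFR, the low-affinity nerve growth factor receptor of basal cells, went against the 7 higher genes. It fell from 719.2 ± 79.9 to 154.4 ± 20.1 CPM (log2 -2.22 ± 0.11, adjusted p = 1.8e-07). EGFR also fell, but slightly (log2 -0.27 ± 0.06). ITGA6 stood at 2222 and 2299 CPM and did not pass.

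Luminal markers did not move as a block. Of 10, 9 were tested, and 5 were higher, 2 lower and 2 did not pass, with a median log2 fold change of 0.32. KRT19 and the mucin MUC1 rose by 1.83 and 1.28 on the log2 scale from low levels of 1.31 and 8.94 CPM, and PROM1 and CD24 rose by 0.64 and 0.59. ALDH1A3 and EPCAM fell by 0.34 and 0.33, while the main luminal keratins KRT8 and KRT18 did not pass (adjusted p = 0.607 and 0.11).

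Of 13 luminal target genes 10 were tested, with 3 higher, 5 lower and 2 not passing, and a median log2 fold change of -0.17. The receptor ERBB3 fell from 89.4 ± 1.73 to 39.4 ± 1.75 CPM (log2 -1.18 ± 0.06; adjusted p = 2.03e-07), ERBB2 fell from 150.5 to 107.4 CPM, and MLPH, a melanosome transport gene, fell from 6.62 to 1.65 CPM. NAT1 fell by 0.58 on the log2 scale. STC2 and AGR2, both secretory pathway genes induced by oestrogen or stress, rose by 1.73 and 1.44, and CA12 by 0.31. GREB1 and XBP1 did not pass, and RET was too rare to be tested.

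**Figure D5:**
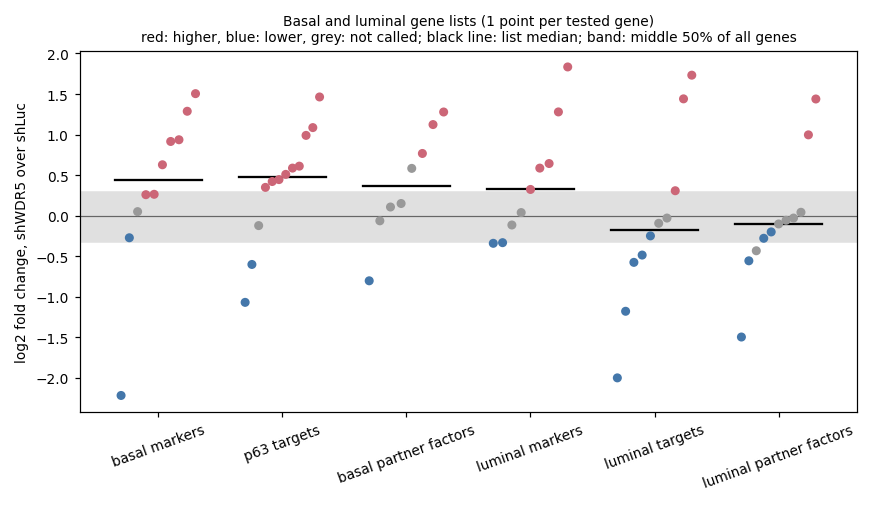
Log2 fold change of shWDR5 over shLuc for every tested gene of 6 lists of basal and luminal genes; black lines are list medians and the band covers the middle 50% of all tested genes. The medians are 0.44 for basal markers, 0.48 for p63 targets and 0.37 for basal partner factors. They are 0.32 for luminal markers, -0.17 for luminal targets and -0.10 for luminal partner factors. Each list holds genes on both sides of 0.

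As a check for other cell types, 10 genes of leukocytes, endothelium, fibroblasts, smooth muscle and erythrocytes were examined. HBB had no read, and PTPRC, COL3A1 and DCN were too rare to be tested. The summed level of the list was between 41.1 and 44.4 CPM in shLuc and between 31.2 and 36.3 CPM in shWDR5, mostly from COL1A1 (22.1 and 15.6 CPM), CD68 and PECAM1 (6.50 and 3.97 CPM). COL1A1 and PECAM1 fell and 4 others did not pass, among them CD68 and MYH11. Whether these genes have a part in the differences above was not tested.

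The genes with the most similar course over the 6 libraries were named for the factor that rose most and the one that fell most. For SOX4 these were TP53INP1 (Pearson r of log2 CPM = 0.9988), ITGB6 (0.9988) and ZNF117 (0.9983), and for TFAP2C they were STK39 (0.9994), CD55 (0.9994) and HEG1 (0.9993), among 9458 genes with a mean of at least 10 CPM. The values describe a split into 2 groups more than a graded relation, since 833 genes had r above 0.95 with SOX4 and 1777 with TFAP2C.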

How the data were processed

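Poly-A RNA of 6 cultures was made into libraries with the TruSeq RNA kit, which does not mark strand, and sequenced on an Illumina HiSeq instrument. According to the submitters' processing notes the authors used TopHat2 2.1.0, featureCounts and edgeR 3.2.2 with the builds hg19 and GRCh37; other settings are not given in the sources used here. The deposited table holds raw read counts per gene with exon coordinates and the exonic length. The authors' own table of fold changes and p-values was not used.

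Counts were fitted with edgeR 4.0.16 in R 4.3.3 (filterByExpr with a minimum count of 10, TMM scaling, quasi-likelihood test, shWDR5 against shLuc, no covariate), with Benjamini-Hochberg adjustment over all 16117 genes tested. The SE was derived from the log2 fold change and its F statistic. CPM and RPKM use TMM-scaled library sizes. The code was tested on simulated data. Replicate libraries of a group differed by more than counting noise. Alternatives were DESeq2 1.42.0, limma-voom 3.58.1, the edgeR exact test, other scalings and filters, a replicate block and leaving out each library.

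The members and lists were chosen with earlier results of these data known. The text names all 10 factors, WDR5 and, in each list and among the neighbours, up to 4 called genes per direction by fold change and up to 2 not called by level, and 3 similar genes for 2 factors. Ratios within libraries and the share among genes of at least 20 CPM were added after seeing the data. Promoter windows are RefSeq's on GRCh38.p14, matched by symbol, and gene coordinates are the table's on hg19; no coordinate was converted. Some genes counted in the lists are not reported here by name.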

Additional observations from a re-analysis of the deposited data

How the results depend on the processing

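The 8 factors that passed the test kept their direction and stayed past the threshold in all 15 alternative fits, with log2 fold changes from 1.55 to 1.78 for SOX4 and from -0.93 to -0.83 for TFAP2C. All 8 also passed an adjusted p threshold of 0.01 in the fit as reported. Over the 15 alternative fits, the largest adjusted p among these 8 was 0.0332, for FOXA1 without shLuc replicate 3. Adding the fold and RPKM thresholds left 1 factor higher and 1 lower, and 1274 and 1688 genes in all. Some genes that did not pass the test turned sign: with library totals only, FOXC1 (-0.045), CBFB (-0.015), ITGA6 (-0.008) and KRT8 (-0.020), and with upper-quartile scaling XBP1 (0.007). Over the fits that each left out 1 library, FOXC1 ranged from -0.045 to 0.101, EHF from -0.119 to 0.006, KLF5 from -0.015 to 0.266, CBFB from -0.130 to 0.212 and KRT8 from -0.005 to 0.083. Neighbour genes called lower ranged from 1 to 2 when a library was left out; the lone loss was MIPOL1 without shLuc replicate 2. Genes that did not pass as reported but did elsewhere were FGFR2 and KRT18 with library totals only (adjusted p = 0.0456 and 0.0189), KRT18 and CEBPB with the replicate block (0.0179 and 0.0404) and CEBPB without shLuc replicate 1 (0.0449). Of 1181 values of 79 other named genes, 1146 kept direction and call. The causes were not tested.

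With the replicate number as a block, 4901 genes were higher and 5511 lower, against 4291 and 4821 without it, and the factors again counted 5 and 3. Over all tested genes, same-numbered libraries deviated from their group means together with r = 0.37, 0.04 and 0.12. For every tested factor except TFAP2C, replicate 1 had the lowest CPM in both groups, as in SOX4 at 32.1 CPM in shLuc and 108.0 CPM in shWDR5. For TFAP2C the lowest shLuc library was replicate 3, at 121.7 CPM. The labels give replicate numbers but state no pairing, and the fit as reported used no block. Whether same-numbered libraries share a source of variation was not tested. Depth limits ELF5 and other genes with few reads.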
